A study of Mus musculus with 9 samples.

Results

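Prosensory cells of the embryonic mouse cochlear duct were compared between the embryonic stages E14.5 and E16 by their open chromatin. The comparison rests on 4 of the 9 samples of the series, chosen by stage and by sorted population: E14.5 Sox2-EGFP+ replicates 1 and 2 and E16 Sox2-EGFP+ replicates 1 and 2. The other 5 samples were E12 Sox2-EGFP+ cells (2 samples) and Sox2-EGFP- cells of E14.5 (1 sample) and E16 (2 samples). They were used as a separate readout of the regions that differed. All cells came from mice in which EGFP was placed at the Sox2 locus, so every group carried 1 reporter allele in place of 1 Sox2 allele, with no treatment and no wild-type control. Each replicate was a pool of cochlear ducts from 1 litter, and the brightest EGFP cells were taken by flow cytometry. The sort kept the highest EGFP signal and left out dim cells, and which cell types passed it at each stage was not tested here, so a change within cells and a change of cell mixture cannot be told apart. The groups follow the titles, because the separate cell type tags disagree with them for 3 samples. The tag of E16 Sox2-EGFP+ replicate 2 names the Sox2-EGFP- population, and the tags of both E16 Sox2-EGFP- samples name the Sox2-EGFP+ population. E16 replicate 1 was the only one of the 4 from sequencing batch 1, according to the sample table of the study.

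The prosensory domain is a strip of the duct epithelium that leaves the cell cycle and then forms the organ of Corti. Sox2, Jag1, Gata3 and Eya1 take part in establishing it, and the bHLH factor Atoh1 later drives hair cell fate. Cells that become hair cells expose Notch ligands, and their neighbours answer through Notch receptors with Hes and Hey repressors and become supporting cells. Fgf20 from the domain, Bmp and Wnt signals from its borders, and the planar cell polarity pathway shape number, position and orientation of the cells. ATAC-seq finds the promoters and enhancers involved, since a transposase cuts only DNA that nucleosomes leave accessible. In a sorted pool, fewer cells with a region open and less opening in each cell cannot be told apart.

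The lists held 66332 and 22962 peaks for E14.5 replicates 1 and 2, and 39314 and 65870 peaks for E16 replicates 1 and 2. The median −log10 p of a peak, the peak caller's measure of significance, was 23.7 and 9.61 at E14.5 and 13.8 and 10.5 at E16. List length and −log10 p thus varied more within E14.5 than between the stages. The lists hold no reads, and read depth is not known from them. In the sample table of the study, E14.5 replicate 1 has the highest and E14.5 replicate 2 the lowest share of reads in peaks among the 4. Start sites of the prosensory genes Sox2, Jag1, Gata3, Isl1 and Eya1 and of the 3 epithelial markers (Epcam, Cdh1 and Grhl2) had a peak in all 4 lists. Start sites of the 4 macrophage markers and the 2 blood markers had a peak in none. Those of the glial genes Sox10 and Foxd3 differed between the samples, and their ranks are given with the gene lists below. Of the 4 neuron markers, 4 and 2 had a start-site peak in the E14.5 replicates and 4 in each E16 replicate. Neurog1, a factor that specifies otic neurons, ranked 48694 among the peaks of E14.5 replicate 1 (rank 1 has the highest −log10 p). It had no peak in E14.5 replicate 2, and ranked 31351 and 33726 at E16. Of the 4 mesenchyme markers, 3 and 2 had a start-site peak in the E14.5 replicates and 3 in each E16 replicate, and Prrx1 had none in any of the 4. Endothelial markers, 4 in number, had a start-site peak at 2 and 0 in the E14.5 replicates and 1 and 2 in the E16 replicates. For the 3 melanocyte markers the counts were 2 and 1 at E14.5 and 1 and 2 at E16.

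To set the stages on equal lists, the 20000 peaks with the highest −log10 p were taken from each sample and merged into regions. Of these, 20808 regions had a peak in at least 2 of the 4 top lists and were tested. A region was called for E14.5 when both E14.5 top lists and neither E16 top list had a peak there, and the other way round for E16. There were 606 E14.5 calls (2.91% of the tested regions) and 639 E16 calls (3.07%), together 1245 (5.98%), against 12586 regions with a peak in all 4 top lists. A call marks a lower rank in the other stage far more than an absence. Only 5 E14.5 calls and 0 E16 calls had no deposited peak at any rank in the other stage. The lower-ranked peak was within the first 22000 of at least 1 sample of the other stage for 188 E14.5 calls (31.0%) and 227 E16 calls (35.5%), just outside the top list. The whole list of E14.5 replicate 2 ends at 22962 peaks, so a missing peak in it says little, and 14.6% of the E16 calls had a peak in it against 100% in E14.5 replicate 1. In the whole lists, which differ in length, the calls were 443 (0.679%) and 102 (0.156%) of 65270 tested regions.

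Most pairs of samples from different stages shared more regions between them alone than the pairs of 1 stage did. Regions with a peak in exactly 2 of the 4 top lists fell into 6 combinations of samples. E14.5 replicate 1 and E16 replicate 2 alone shared 1034 regions, E14.5 replicate 1 and E16 replicate 1 shared 782, E14.5 replicate 2 and E16 replicate 1 shared 712, and E14.5 replicate 2 and E16 replicate 2 shared 366. Thus 3 of the 4 combinations across stages held more regions than either set of stage calls. The share of top peaks overlapping between samples was 76.7% for the E14.5 pair and 79.4% for the E16 pair. Across stages it was 80.2% for the replicates numbered 1, 75.1% for those numbered 2, 81.9% for E14.5 replicate 1 with E16 replicate 2, and 76.6% for the remaining pair. The mean share within a stage minus the mean share between stages was -0.370 percentage points (one-sided exact permutation test, p = 0.667, where 3 pairings of 4 samples allow no p below 0.333). Without E14.5 replicate 1 the difference was 3.58 percentage points.

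**Figure D1:**
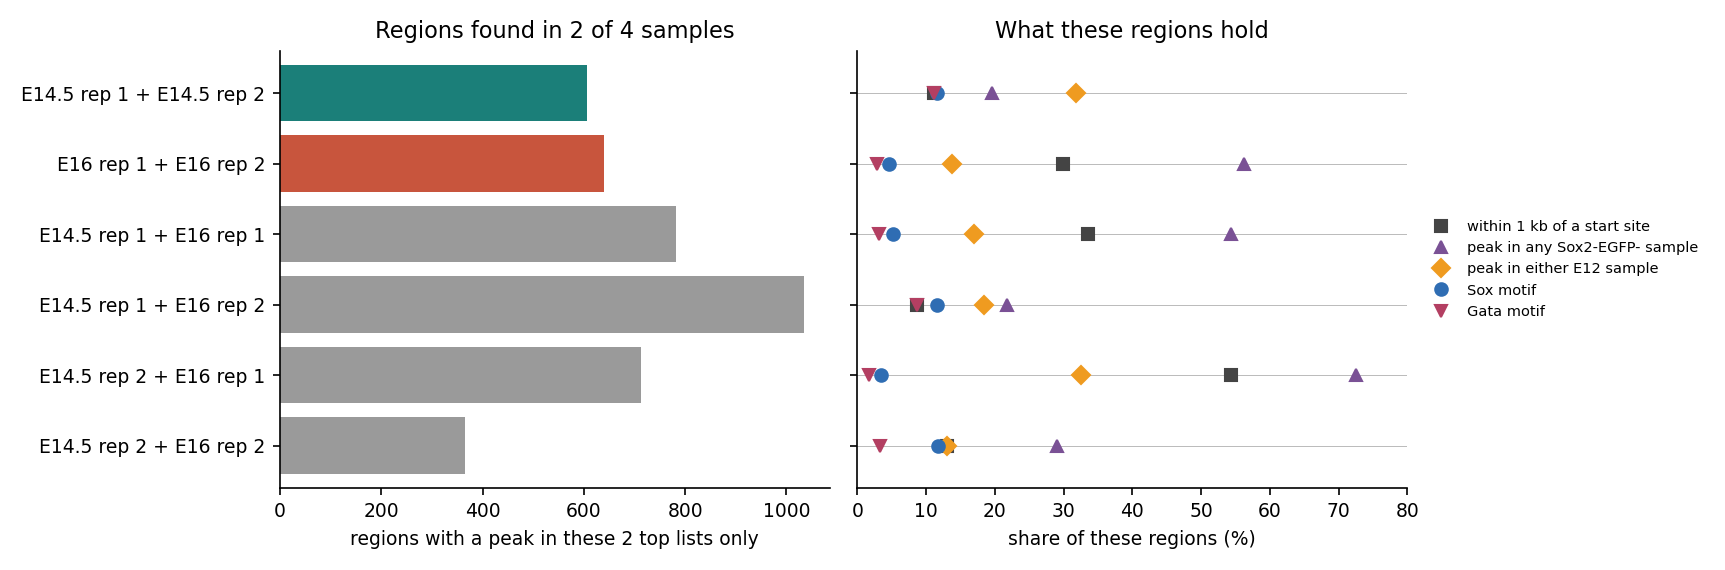
Left, the number of regions with a peak in exactly 2 of the 4 top lists, for each combination of samples, with the stage calls in colour (606 for E14.5, 639 for E16) and combinations across stages in grey. Right, the share of those regions (%) near a start site, with a peak in other samples or with a motif; promoter share and overlap with Sox2-EGFP- peaks are high in the 3 combinations that hold E16 replicate 1.

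Among 19006 regions with a peak in all 4 whole lists, ranks were compared instead of presence. Both E14.5 samples ranked above both E16 samples at 2975 regions (15.7%), and both E16 samples ranked above both E14.5 samples at 3008 (15.8%). With 2 samples per stage, a random order of the 4 samples gives shares at least as large, so these counts show no excess. When the ranks were converted to normal scores and tested with limma, 0 regions passed in either direction at an adjusted p under 0.05 (Benjamini-Hochberg over all 19006). At an unadjusted p under 0.05, 497 regions were higher at E14.5 (2.61%) and 321 at E16 (1.69%). Without E14.5 replicate 1, 18 and 22 regions passed the adjusted threshold. The region with the smallest p toward E14.5 lay 461 kb from the start site of Gm2574 on chromosome 3. It ranked 7552 and 5404 in the E14.5 replicates and 18753 and 18802 in the E16 replicates, out of the 19006, so the stages did not overlap. The score difference (E16 minus E14.5) was -2.67 with an SE of 0.46, and limma gave an adjusted p of 0.0822, the smallest in the fit. The next 4 by p in that direction were nearest to Sema6a (a semaphorin), Zmiz1, Sema5a (another semaphorin) and Xpnpep1, with adjusted p from 0.0822 to 0.416 in the same limma fit. The region with the smallest p toward E16 lay 11.2 kb from the nearest annotated start site of Apba1, an adaptor protein of neurons. It ranked 8962 and 6271 in the E16 replicates and 16006 and 18620 in the E14.5 replicates, a score difference of 1.78 with an SE of 0.48 (limma, adjusted p = 0.9). The next 4 by p toward E16 were nearest to Commd5, Olfm2, Zfp839 and Mfsd1, and all 4 lay within 1 kb of a start site.

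E14.5 calls lay farther from start sites than E16 calls did, an order that turned in batch 2 alone, under a looser rule. Of the E14.5 calls, 45.7% were intergenic, 42.1% intronic and 5.28% in promoters, and of the E16 calls 40.7%, 27.7% and 19.2%. Of the E14.5 calls, 11.1% lay within 1 kb of a protein-coding start site and 23.6% over 100 kb away, with a median distance of 33.9 kb. Of the E16 calls, 29.9% lay within 1 kb and 7.51% over 100 kb away, with a median distance of 8.86 kb, while 54.8% of all tested regions lay within 1 kb. By class, 67 of 11403 regions near a start site were called for E14.5 (0.588%) and 191 for E16 (1.67%). Among the 9405 regions farther away, 539 were called for E14.5 (5.73%) and 448 for E16 (4.76%). This split moved with single samples. Regions shared only by E14.5 replicate 2 and E16 replicate 1 were within 1 kb of a start site in 54.4%, those of E14.5 replicate 1 and E16 replicate 1 in 33.6%, and those of E14.5 replicate 1 and E16 replicate 2 in 8.70%. In batch 2 alone, without E16 replicate 1, it came to 29.8% of E14.5 calls and 12.7% of E16 calls near a start site. There an E16 call rests on 1 sample and an E14.5 call on 2, so these calls are unlike those above. Batch and replicate cannot be told apart here, since batch 1 gave 1 sample of the comparison.

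The 10 E14.5 calls with the best mean rank were nearest to Tnp1, Tln2, Gm2574, Myo1e, Cpd, Sema5a, Thrb, Pik3r1, Lmo1 and Mrps33. They were chosen after the values were seen, because fewer than 10 calls had no peak in the other stage. None lay within 1 kb of a start site. Thrb encodes a thyroid hormone receptor needed for hearing, and the region in its intron (chr14:18648394-18649047) ranked 10314 and 4647 at E14.5 and 31278 and 28925 at E16. The Sema5a region (chr15:32660646-32661134) ranked 8154 and 6682 at E14.5 and 32911 and 44910 at E16, and had no peak in any of the other 5 samples. The 5 regions with no E16 peak at any rank were nearest to Rbm26, Zmat4, Zfp238, Maml3 and Opn5, and none of these had a peak in any of the other 5 samples either. The Rbm26 region (chr14:105484307-105485129) stood highest of them, with ranks of 6997 and 12274 and −log10 p of 65.0 and 9.18 in E14.5 replicates 1 and 2.

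The 10 best-ranked E16 calls, chosen the same way, were nearest to Apba1, Trio, Bdkrb2, Micall1, 4932442E05Rik, Pacrgl, Sf3a3, 1500035N22Rik, Wiz and Eif4b. Trio encodes a guanine nucleotide exchange factor of axon growth. The region in its intron (chr15:27853416-27853689) ranked 9801 and 7628 at E16, 20464 in E14.5 replicate 1 and had no peak in E14.5 replicate 2. At Apba1 (chr19:23967544-23968193) the ranks were 9196 and 6427 at E16 and 21920 and 22128 at E14.5. All 10 had a peak in E14.5 replicate 1, at ranks from 20118 to 30412.

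Genes with known roles in the cochlea were examined through 22 lists of 409 genes, by the regions nearest to their start sites. These lists held 857 tested regions, of which 42 were called for E14.5 (4.90%) and 37 for E16 (4.32%), both above the shares over all tested regions and below those over regions more than 1 kb from a start site. The nearest gene is a matter of position, and no region was tied to a gene by other data. No list was tested, since calls are counts without a test. The shares of single lists below are to be read against 2.91% (E14.5) and 3.07% (E16) of all tested regions and 5.73% and 4.76% of those over 1 kb from a start site, and a list with few regions can pass them by 1 or 2 calls.

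Supporting cell genes had E16 calls and no E14.5 call in the top 20000. Of 52 tested regions, 0 were called for E14.5 and 5 for E16 (9.62%), at Hes5, Hes1, Slc1a3, Bmp2 and Ngfr. Hes5 is a Notch effector of supporting cells, and the region over its start site (chr4:154334694-154335159) ranked 17093 and 14884 in E16 replicates 1 and 2. It ranked 25614 in E14.5 replicate 1 and had no peak in E14.5 replicate 2, at E12 or in Sox2-EGFP- cells. The −log10 p was at most 18.9 at E16 and 30.2 in E14.5 replicate 1, so the order by rank is the reverse of the order by the raw value. Hes1, a Notch target with wider expression, had a start-site region (chr16:30065165-30065536) with ranks of 13342 and 18669 at E16, 27395 in E14.5 replicate 1 and no peak in E14.5 replicate 2. All 3 Sox2-EGFP- lists had a peak at this Hes1 region, and also at the called Slc1a3 and Ngfr regions. At the called Bmp2 region 2 of them had a peak, and at the Hes5 region 0. Slc1a3, the glutamate transporter of glia-like supporting cells, had a region 81.0 kb from its start with ranks of 17326 and 16526 at E16, 24784 in E14.5 replicate 1 and none in E14.5 replicate 2. Ngfr, the neurotrophin receptor of pillar cells, had a start-site region with ranks of 14598 and 11627 at E16 and 21179 in E14.5 replicate 1. When peaks were ranked by fold enrichment, none of these 5 calls held, and the list had 3 E14.5 calls and 1 E16 call, as it did among peaks with a −log10 q of at least 5.

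Of 60 tested regions near Notch pathway genes, 2 (3.33%) were called for E14.5 and 4 (6.67%) for E16. The E14.5 calls numbered 0 in the top 10000 and at a -log10 q of at least 5, and 1 in whole lists. The E16 calls numbered 0 in the top 10000 and in whole lists, and 1 under fold ranking and at a -log10 q of at least 5. Besides Hes5 and Hes1, the E16 calls were near Dll1, a ligand of nascent hair cells, and Hey1, a repressor downstream of Notch and Shh. The Dll1 region (chr17:15517618-15517969) lay 4.85 kb before the gene and ranked 17846 and 11236 at E16 and 23695 in E14.5 replicate 1. The Hey1 region ranked 19950 and 12813 at E16 and 24035 in E14.5 replicate 1. Neither had a peak in E14.5 replicate 2 or in any of the other 5 samples. Both E14.5 calls were near Maml3, a coactivator of the Notch intracellular domain. The region in an intron, 25.2 kb from the nearest start site of the gene, ranked 18259 and 6867 at E14.5 and 21785 and 25443 at E16. The intergenic region 10.7 kb before a start site had no E16 peak.

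Tead and Hippo pathway genes had 3 E14.5 calls among 45 tested regions (6.67%) and 0 for E16. Ctgf, a target of the Yap and Tead factors that govern growth, had 2 of them. The region 4.79 kb before Ctgf (chr10:24310020-24310899) ranked 15969 and 9199 in E14.5 replicates 1 and 2 and 29730 and 31349 in E16 replicates 1 and 2. The region 53.1 kb beyond the start, in an intron of Enpp1, ranked 18109 and 12352 at E14.5 and 20493 and 23781 at E16, close to the limit. Vgll4, a cofactor that competes with Yap for Tead, had an intronic region (chr6:114905257-114906096) with ranks of 12274 and 15696 at E14.5 and 38307 and 30162 at E16. None of the 3 had a peak in the other 5 samples. The list had 0 E14.5 calls in the top 10000 and in whole lists, and 1 under fold ranking.

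Bmp and activin pathway genes had 5 E14.5 calls among 69 tested regions (7.25%) and 2 E16 calls (2.90%). The E14.5 calls were near Id3 and Id2, which hold back bHLH factors, near Smad5 and Smad3, which carry the signal to the nucleus, and near Fst, an activin antagonist graded along the cochlea. At Id3 (chr4:135660602-135661270) the ranks were 17987 and 14643 at E14.5 and 29744 and 32181 at E16. At Fst (chr13:115234098-115234957) they were 15518 and 19417 at E14.5 and 37219 and 59969 at E16. At Smad5 (chr13:56833099-56833653) they were 18814 and 11503 at E14.5, and at E16 replicate 1 had no peak and replicate 2 ranked 32827. The E16 calls were near the ligands Bmp2 and Bmp7. The Bmp2 region ranked 15357 and 19683 at E16 and 27375 in E14.5 replicate 1, and the Bmp7 region 16669 and 16530 at E16 and 26090 in E14.5 replicate 1. The E14.5 calls of the list came to 1 in whole lists, 0 at a −log10 q of at least 5 and 7 under fold ranking.

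**Figure D2:**
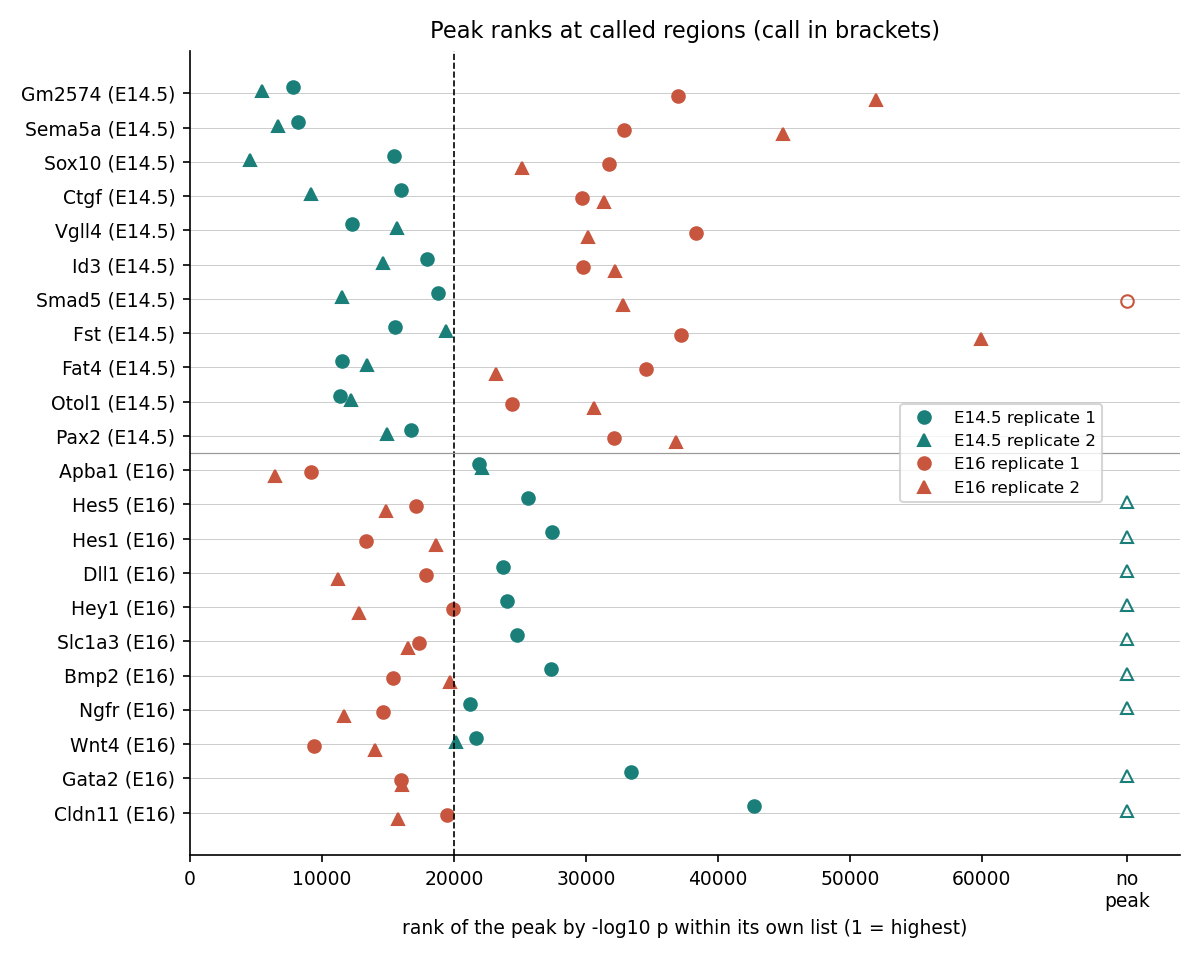
Rank of the highest peak by −log10 p within each sample's own list (x axis, 1 is the highest) at example regions among the calls, with circles for replicates 1, triangles for replicates 2 and open symbols where the list had no peak. The dashed line is the limit of the top list at 20000; ranks of the other stage lie to its right, and E14.5 replicate 2 had no peak at 9 of the 11 E16 regions shown.

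Planar cell polarity genes had 3 E14.5 calls of 40 tested regions (7.50%) and 0 for E16. These lay near Celsr1 and Fat4, large cadherins of the pathway, and Ror1, a receptor for Wnt ligands. The Fat4 region ranked 11525 and 13398 at E14.5 and 34515 and 23209 at E16, and the Ror1 region 7238 and 15987 at E14.5 and 22432 and 24811 at E16. The 0 for E16 became 4 in the top 10000 and 4 under fold ranking, beside 2 E14.5 calls in each. Wnt pathway genes showed 2 E14.5 calls (2.04%) and 5 E16 calls (5.10%) of 98 tested regions. Both E14.5 calls were near Tcf7l2, a nuclear effector of the pathway. The E14.5 calls of the Wnt list came to 4 in the top 10000, 4 under fold ranking and 6 in whole lists. They came to 2 in the top 5000 and 0 at a −log10 q of at least 5. The E16 calls were near the receptors Fzd9 and Fzd10, the ligand Wnt4, the secreted protein Dkk3 and Rnf43, which removes receptors from the membrane. The Wnt4 start-site region (chr4:136832791-136833619) ranked 9417 and 14005 at E16 and 21689 and 20142 at E14.5, and all 3 Sox2-EGFP- lists had a peak there. The nonsensory epithelium list, which also holds Wnt4, had 3 E16 calls of 29 tested regions (10.3%) and 0 for E14.5, with Gata2 and Cldn11 as the other 2. The Gata2 start-site region ranked 15948 and 16090 at E16 and 33423 in E14.5 replicate 1, and had no Sox2-EGFP- peak. The E14.5 calls of the list came to 2 in the top 10000, 1 in the top 5000 and 3 in whole lists and at a −log10 q of at least 5.

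Several genes had regions called in opposite directions. Of 565 genes nearest to an E14.5 call and 615 nearest to an E16 call, 39 were nearest to both. Genes differ in how many tested regions they have, and whether 39 is more than that alone gives was not tested. Fgf20, the prosensory growth factor, had an E14.5 call 135 kb from its start (chr8:41236279-41237375), with ranks of 14205 and 6955 at E14.5 and 21946 and 26177 at E16. Its E16 call, in an intron (chr8:41381859-41382181), ranked 19194 and 15642 at E16 and 25511 in E14.5 replicate 1. Srrm4, a splicing regulator of hair cells and neurons, had an E14.5 call in an intron with ranks of 10085 and 16091, no peak in E16 replicate 1 and a rank of 21810 in E16 replicate 2. Its E16 call covered the start site, with ranks of 18686 and 17405 at E16 and 23218 and 20287 at E14.5. Etv5, a transcription factor induced by Fgf, had 1 E14.5 call and 2 E16 calls within an intron of Dgkg. The cell cycle list had 4 calls of 52 in each direction (7.69%), and Cdkn1a and Cdkn1c, inhibitors of cell cycle kinases, and Myc each appeared in both. Its E14.5 calls came to 2 in the top 10000, under fold ranking and at a −log10 q of at least 5. In whole lists the number was 1.

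Axon guidance genes had 8 E14.5 calls of 66 tested regions (12.1%), the most of any list in the top 20000, and 4 E16 calls (6.06%). Under fold ranking and in the top 10000 they had 3 E14.5 calls and in whole lists 2, fewer than the Wnt list (4, 4 and 6). The E14.5 calls were near Unc5c and Robo1 (2 each), Sema3a, Sema3d, Plxna4 and Epha4, which are receptors and repellents of growing axons. The Plxna4 region ranked 16651 and 9729 at E14.5 and 26837 and 25223 at E16, and the Sema3d region ranked 15557 and 17693 at E14.5, had no peak in E16 replicate 1 and ranked 30604 in E16 replicate 2. The E16 calls were near Nrp1, Sema3c, Slit1 and Epha4. Of the matrix genes, Otol1, a collagen-like protein of otoconia, had 2 E14.5 calls, and Col2a1 had 1. Otor had the list's single E16 call, for 3 and 1 of 30. The tectorial membrane and otic matrix list had 0 E14.5 calls under fold ranking and in whole lists and 1 in the top 10000. Of genes that mark other cells, Sox10 had the 1 E14.5 call of the glial list (14 regions), at chr15:79006148-79006909, with ranks of 15425 and 4523 at E14.5 and 31709 and 25139 at E16. The start site of Sox10 ranked 54208 in E14.5 replicate 1 and 53671 in E16 replicate 2, which are alike. It ranked 27056 in E16 replicate 1 and had no peak in E14.5 replicate 2, whose list is too short to hold such ranks. Sox10 is also made in the otic epithelium. Foxd3, another gene of glial precursors, had no start-site peak at E14.5 and ranked 24175 and 36834 at E16. The otic neuron list had no call among 14 regions. The remaining lists had from 0 to 4 calls in either direction.

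**Figure D3:**
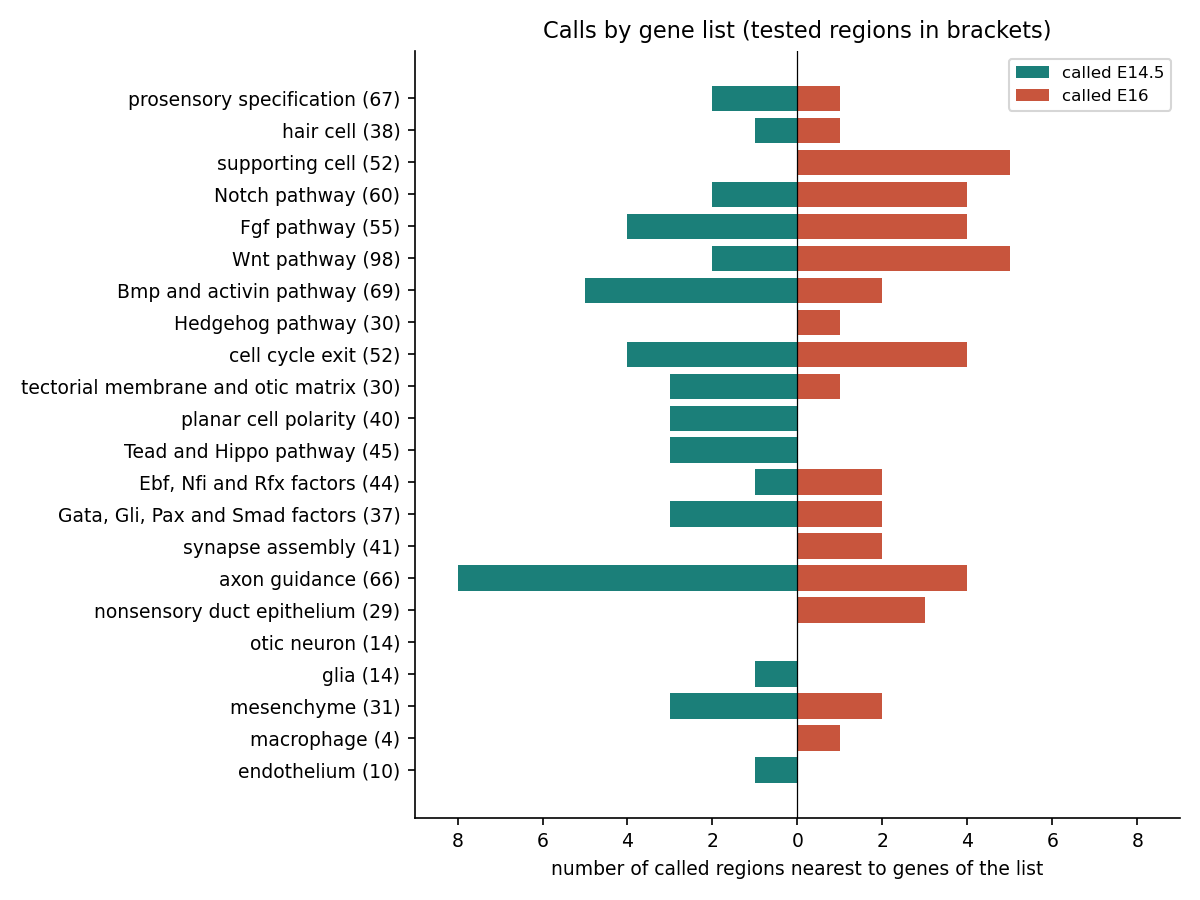
Number of called regions (x axis) nearest to genes of each list, E14.5 calls to the left and E16 calls to the right, with the number of tested regions in brackets. In the top 20000 shown, the supporting cell and nonsensory lists had 5 and 3 E16 calls and no E14.5 call, and the planar cell polarity and the Tead and Hippo lists had 3 E14.5 calls each and no E16 call; other settings gave both directions.

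Near the genes that define the prosensory domain, 2 of 67 tested regions were called for E14.5, near Fgf20 and Pax2, which is 2.99% beside 2.91% of all tested regions. For E16 it was 1 region, near Fgf20, which is 1.49% beside 3.07%. The Pax2 region, at its start site, ranked 16722 and 14927 at E14.5 and 32129 and 36855 at E16. No region nearest to Sox2, Eya1, Gata3, Isl1, Jag1, Atoh1 or Prox1 was called in either direction, and Fgfr3 had no tested region. Of 8 tested regions nearest to Sox2, 5 had a peak in all 4 top lists, as did 4 of 8 at Eya1, 2 of 7 at Gata3, 2 of 2 at Jag1 and 1 of 4 at Isl1. At the Sox2 start site (chr3:34547449-34549324) the ranks were 15423 and 3855 at E14.5 and 6204 and 12883 at E16, so both E16 ranks lay between those of E14.5. At the Isl1 start site they were 3684 and 1838 at E14.5 and 3951 and 7934 at E16, which do not overlap but stand within the top lists of all 4. At the Atoh1 start site (chr6:64678604-64680048) they were 32608 and 12488 at E14.5 and 19796 and 39877 at E16, again overlapping. For Prox1, a marker of supporting cells, the E16 ranks were 18296 and 20706, against 24381 in E14.5 replicate 1 and no peak in E14.5 replicate 2, again without overlap, and 1 E16 rank lay outside the top list. Of 56 otic enhancers and promoters that the study compiled, 34 had a peak in at least 1 whole list and 15 in all 4. A call needs a peak in at least 2 top lists, which 17 of them had, and 0 of these were called for either stage, beside 5.98% of all tested regions. In the top 10000, 3 elements were called for E14.5 and 0 for E16, and in the top 5000 1 and 0.

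The 5 samples outside the comparison gave a readout that the calls had not used. E14.5 calls had a peak in E12 replicates 1 and 2 in 26.2% and 9.24%, and E16 calls in 11.6% and 3.44%, against 53.6% and 32.5% of all tested regions. In Sox2-EGFP- cells, 17.5% of E14.5 calls had a peak in the E14.5 sample, and 17.0% and 16.8% in the E16 samples. Of E16 calls, 50.5% had a peak in the E14.5 Sox2-EGFP- sample and 53.8% and 48.4% in the E16 ones, against 68.8% to 70.2% of all tested regions. Thus 54.3% of E14.5 calls and 40.5% of E16 calls had a peak in none of the 5, against 18.3% of the tested regions. Away from start sites any Sox2-EGFP- peak lay at 14.1% of E14.5 calls and 45.1% of E16 calls, beside 43.4% of all tested regions there, so the E16 share was near the background and the E14.5 share below it. An E12 peak lay at 31.9% and 9.15%, both below the 39.8% of all tested regions there. The order of E14.5 and E16 calls turned with the samples used in both readouts. With 1 comparison sample left out, calls of its stage rest on 1 sample and calls of the other stage on 2, so the rule is unequal. E16 Sox2-EGFP- replicate 1 is also of batch 1. In batch 2 alone, with E16 replicate 1 left out and only the other 2 Sox2-EGFP- samples read, which was added after seeing the data, a Sox2-EGFP- peak was found at 43.7% of E14.5 calls and 28.8% of E16 calls. Without E14.5 replicate 1, an E12 peak was found at 15.1% of E14.5 calls and 23.4% of E16 calls, and without E14.5 replicate 2 at 19.2% and 29.9%. With peaks ranked by fold enrichment it was found at 19.3% and 21.9%. Start sites of the mesenchyme genes Pou3f4, Twist1 and Tbx18 had peaks in all 3 Sox2-EGFP- lists. Pou3f4 ranked 26084 in E14.5 replicate 1, had no peak in E14.5 replicate 2 and ranked 14425 and 21514 at E16, so both E16 samples were higher. Twist1 ranked 42448 and 13186 at E14.5 and 21437 and 51840 at E16, and Tbx18 41588 and 17156 at E14.5 and 26561 and 36359 at E16, and the stages overlapped at both. Their part in the result was not tested.

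**Figure D4:**
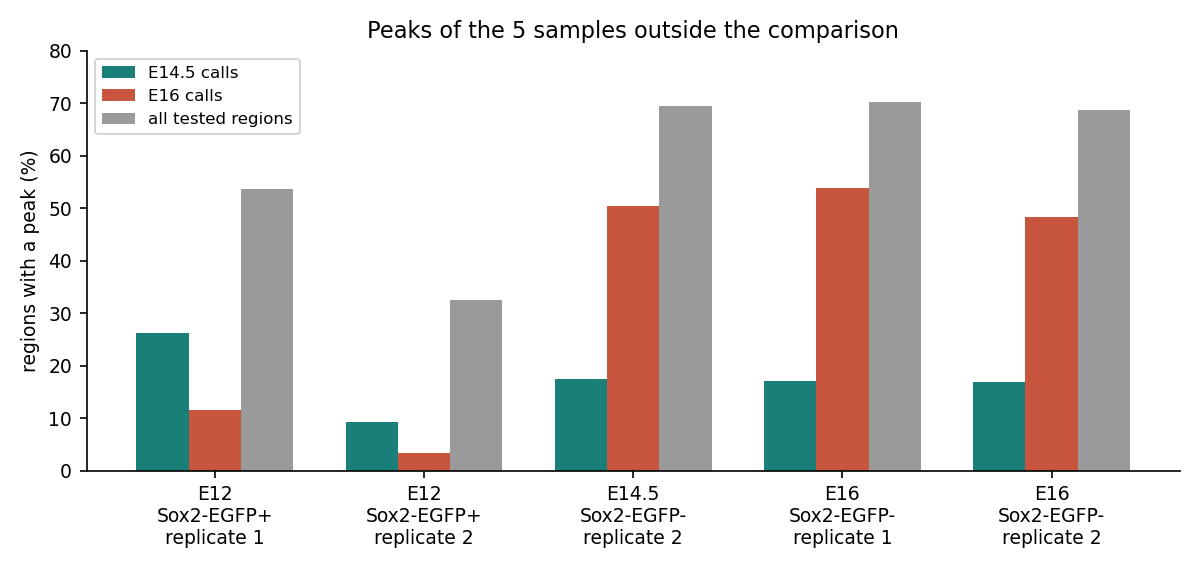
Share of regions (%) with a peak in each of the 5 samples outside the comparison, for E14.5 calls, E16 calls and all tested regions. E16 calls overlapped Sox2-EGFP- peaks in 48.4% to 53.8% and E14.5 calls in 16.8% to 17.5%, while E12 peaks were more frequent at E14.5 calls.

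Sequence around the peaks was read because binding sites of Sox and Gata factors mark prosensory enhancers, and it played no part in the calls. The E14.5 calls held Gata and Sox motifs more often than the E16 calls did, but in single samples the stages overlapped. Within 200 bp of the summit and on either strand, the Gata motif AGATAAG lay in 11.1% of E14.5 calls, 2.82% of E16 calls and 3.35% of all tested regions. The Sox motif ACAATGG lay in 11.6%, 4.54% and 5.65%. The Sp/Klf motif GGGCGGG, common in promoters, went the other way, with 7.61% of E14.5 calls, 17.4% of E16 calls and 16.2% of tested regions over 1 kb from a start site. GC content moved with these shares, at 51.1% ± 6.24 (SD, n = 606) for E14.5 calls and 57.4% ± 9.76 (SD, n = 639) for E16 calls. Among regions over 1 kb from a start site with a GC content of 45 to 55%, Gata lay in 44 of 355 E14.5 calls (12.4%), 10 of 245 E16 calls (4.08%) and 6.96% of the tested regions. Sox in the same regions lay in 10.7%, 7.35% and 11.1%, and Sp/Klf in 5.92%, 9.39% and 6.43%. The Gata share was also high, at 8.70%, in the regions that E14.5 replicate 1 shared with E16 replicate 2, and low, at 3.28%, in those of E14.5 replicate 2 and E16 replicate 2. The Sox share in these same combinations was 11.6% and 11.7%, as high as in the E14.5 calls. In batch 2 alone, where E16 calls rest on 1 sample, the Gata share came to 6.80% of E14.5 calls and 5.79% of E16 calls. The Sox share came to 8.16% and 8.97% there, and its order turned there and in the whole lists (7.45% and 8.82%). The motifs were also read in up to 5000 peaks of each sample. Gata lay in 6.54% and 5.28% for E14.5 replicates 1 and 2, and in 4.18% and 5.44% for E16 replicates 1 and 2. Sp/Klf lay in 17.2% and 18.2% at E14.5 and in 23.9% and 17.7% at E16, in the same order. For both, E16 replicate 2 lay between the E14.5 replicates and E16 replicate 1 outside them. For Sox, E16 replicate 1 was the lowest of the 4 samples and E16 replicate 2 the highest.

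Sites in 8 E14.5 calls near genes of the lists show the Gata motif in its setting, each read from mm9 on the strand of the motif, 5′ to 3′, with the motif in capitals and 10 bases on either side. The Ctgf site lies at chr10:24310597-24310623 (+), the Fst site at chr13:115234699-115234725 (+), the Smad5 site at chr13:56833385-56833411 (+), the Smad3 site at chr9:63568817-63568843 (-), the Vgll4 site at chr6:114905415-114905441 (+), the Spry2 site at chr14:106202112-106202138 (+), the Pax2 site at chr19:44830843-44830869 (-) and the Robo1 site at chr16:72686894-72686920 (+).
Ctgf: ttgatctaggAGATAAGataccttctc
Fst: aggccctgtcAGATAAGggctgaatgg
Smad5: tgctacttagAGATAAGgccatttaag
Smad3: gcaggaaagtAGATAAGatcagacttc
Vgll4: taggctgcccAGATAAGctactatttc
Spry2: aatgttggggAGATAAGaacaacttca
Pax2: gataaacgttAGATAAGgataaagagc
Robo1: ccctctgttgAGATAAGagcaacccag

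Sox motifs are shown for the E14.5 calls near Gm2574, Id3, Srrm4 and Tcf7l2 and for the E16 calls near Hes5 and Etv5, to set both directions side by side. The Gm2574 site lies at chr3:143086598-143086624 (-), the Id3 site at chr4:135660921-135660947 (+), the Srrm4 site at chr5:117032954-117032980 (-), the Tcf7l2 site at chr19:55868957-55868983 (-), the Hes5 site at chr4:154334849-154334875 (-) and the Etv5 site at chr16:22509373-22509399 (+).
Gm2574: tagcaggcagACAATGGtcattttgta
Id3: ggaaacggggACAATGGatgaaagacc
Srrm4: cttccaagagACAATGGgcttttgttt
Tcf7l2: agcaaacttgACAATGGccctttacag
Hes5: tggcgcgggcACAATGGtcgctccccg
Etv5: ccaggagggcACAATGGtgcctttgac

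The Gm2574 and Id3 sites lay 5 and 16 bp from the summit of the highest peak, and the Hes5 site 106 bp from it. Among the other motifs, the Tead motif ACATTCC lay in 7.42% of E14.5 calls and 5.80% of E16 calls away from start sites (7.52% of tested regions), and none of the 3 calls near Ctgf and Vgll4 carried it within 200 bp of the summit. The E-box CAGCTGG, of the kind Atoh1 binds, lay in 13.2% and 14.7% (14.8% of tested regions), and the E-box CAGGTG in 34.1% and 37.1% (35.1%). The Ctcf consensus, searched with 3 mismatches, lay in 4 of 539 E14.5 calls (0.742%) and 28 of 448 E16 calls (6.25%) away from start sites, against 2.09% of tested regions, and in 2 of 355 (0.563%) and 22 of 245 (8.98%) at a GC content of 45 to 55%. With 1 replicate left out, a looser rule added after seeing the data, it lay in 0.526% to 1.39% of E14.5 calls away from start sites. For E16 calls it was 3.13% to 4.85%, and batch 2 alone gave 0.968% and 3.13%. In the top 5000 it lay in 1 of 157 and 0 of 21, and in whole lists in 1 of 412 (0.243%) and 1 of 86 (1.16%). At any distance it lay in 0.820% to 2.56% of the regions shared only by an E14.5 and an E16 sample, beside 0.660% of E14.5 calls and 4.38% of E16 calls. The Six2 consensus, searched with 2 mismatches, lay in 64.4% and 46.2% (55.1% of tested regions).

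**Figure D5:**
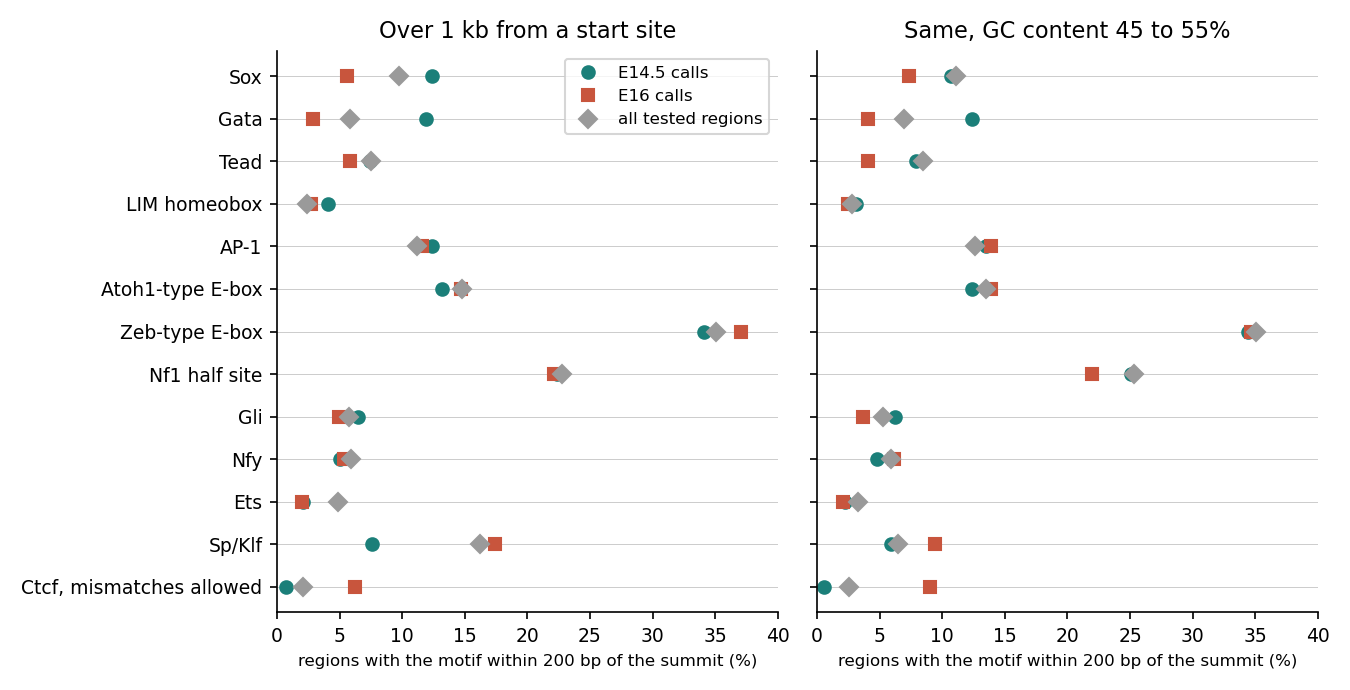
Share of regions (%) with each motif within 200 bp of the summit for E14.5 calls, E16 calls and all tested regions, over 1 kb from a start site (left) and among those with a GC content of 45 to 55% (right). The Gata motif stands at 11.9% of E14.5 calls and 2.90% of E16 calls on the left and at 12.4% and 4.08% on the right, and the Ctcf consensus is higher in E16 calls in both.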

How the data were processed

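The deposited files were peak lists, 1 per sample. Per the study's methods, the authors used Trim Galore for adapters and Bowtie2 for alignment to mm9. Picard and SAMtools took out duplicate and mitochondrial reads. MACS2 then called peaks in each sample (no model, shift of -100 bp, extension of 200 bp). In the deposited lists, 100% of the peaks of each sample met at least 1 other list from the same sorted population, so the lists are not independent. The authors' columns give fold enrichment at the summit (a ratio), -log10 p and -log10 q, and a display score that was not used. None is a read count, and no read depth is in the files.

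Peaks were ranked by -log10 p within each sample. The 20000 highest of each of the 4 lists were merged within 100 bp, and an overlap of 1 bp counted as a peak. Regions with a peak in 2 or more lists were tested by presence, with no p. Ranks at regions present in all 4 whole lists were converted to normal scores and fitted with limma 3.58.1 in R 4.3.3 (threshold 0.05, Benjamini-Hochberg). Distances used the nearest protein-coding start site of the NCBIM37 annotation (mm9), with a promoter taken as 1000 bp before to 100 bp after it. Motifs were searched on both strands within 200 bp of the summit with Python 3.11.15, numpy 2.4.6 and pysam 0.24.0, and consensus sequences with other letters were allowed mismatches. The scripts were tested on simulated data.

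Regions named were those nearest to genes of the lists, calls with no peak in the other stage, the 5 regions per direction farthest apart in limma, and the 10 calls per stage with the best mean rank, the last added after the values were seen. The groups, lists and rules were chosen with earlier results of these data known. Replicates were separate litters, 2 per stage. The alternatives were other list lengths, the ranking by fold, stricter peaks, overlap, merging distance, absence, each replicate left out and a replicate block. Some genes of the lists are not reported here.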

Additional observations from a re-analysis of the deposited data

How the results depend on the processing

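The counts depend on list length and on what counts as absent. E14.5 calls numbered 251 in the top 5000, 5 with strict absence and 242 when peaks had to cover 50% of the region, and 113 when absence meant the top 30000, a setting chosen after seeing the data. E16 calls numbered 366 in the top 10000, 238 in the top 5000, 102 in whole lists, 0 with strict absence, 847 under 50% cover and 101 for the top 30000. Leaving out 1 replicate loosens the rule and gave 1324 to 2841 E14.5 calls and 1338 to 2486 E16 calls. In the gene lists, E14.5 calls were 11 (top 5000), 1 (strict), 25 (-log10 q of at least 5), 19 (50% cover) and 12 (top 30000), and 77 to 176 with 1 replicate left out. E16 calls were 12 (top 10000), 8 (top 5000), 2 (whole lists), 22 (fold ranking), 0 (strict), 18 (-log10 q of at least 5), 51 (50% cover) and 8 (top 30000), and 88 to 134 with 1 replicate left out. Of 103 named regions, 11 kept their call in the top 10000, 0 in the top 5000, 5 in whole lists and 5 with strict absence. The number was 37 under fold ranking, 30 under the stricter q, 66 under 50% cover and 27 for the top 30000. Under fold ranking 0 took the opposite call, and the rule allowed an opposite call in no other setting. Otic elements called for E14.5 were 3 in the top 10000 and 1 in the top 5000.

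The shares below were recomputed under settings chosen after seeing the data, and the cause of their moves was not tested. A Sox2-EGFP- peak lay at 36.8% of E14.5 calls and 96.4% of E16 calls in the top 10000, 54.6% and 98.7% in the top 5000, 5.87% and 10.8% in whole lists, 26.0% and 79.7% under the stricter q, 28.5% and 64.5% under 50% cover, 7.08% and 41.6% for the top 30000, and 14.1% and 45.1% over 1 kb from a start site. Under fold ranking it lay at 15.8% of E14.5 calls, and with 1 replicate left out at 18.1% to 43.7% of E14.5 calls and 28.9% to 69.1% of E16 calls. An E12 peak lay at 69.9% and 62.3% in the top 10000, 90.8% and 91.6% in the top 5000, 3.39% and 0% in whole lists, 19.3% and 21.9% under fold ranking, 44.8% and 31.8% under the stricter q, and 23.0% and 9.90% for the top 30000. For E16 calls it was 22.1% under 50% cover and 9.15% over 1 kb from a start site. With 1 replicate left out it was 15.1% to 36.9% of E14.5 calls and 7.12% to 29.9% of E16 calls. Calls within 1 kb of a start site were 17.2% and 80.6% in the top 10000, 37.5% and 91.2% in the top 5000, 7.00% and 15.7% in whole lists, 5.48% and 36.1% under fold ranking, 14.4% and 52.7% under the stricter q, 17.8% and 38.8% under 50% cover, and 5.31% and 22.8% for the top 30000. With 1 replicate left out they were 7.96% to 29.8% and 12.7% to 44.9%. The Gata share was 7.40% and 0.546% in the top 10000, 6.77% and 1.26% in the top 5000 and 7.71% and 1.64% under the stricter q. For E14.5 calls it was 5.42% in whole lists, 8.26% under 50% cover and 15.0% for the top 30000, and with 1 replicate left out 5.91% to 10.7%, against 2.39% to 5.79% for E16 calls. The Sox share was 7.45% and 8.82% in whole lists, 2.19% of E16 calls in the top 10000 and 1.26% in the top 5000, and with 1 replicate left out 7.18% to 12.4% and 3.96% to 8.97%.

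Sharing within minus between stages turned positive without E14.5 replicate 1 (3.58 percentage points) and ranged down to -1.80 with another replicate left out. It was -3.40 when 50% of a peak had to overlap, -4.64 under fold ranking and -7.88 in whole lists. Regions ranked higher in both samples of a stage numbered 5765 to 10807 for E14.5 and 6086 to 11915 for E16 with 1 replicate left out. Same-numbered samples shared only a number (correlation of deviations -0.174 over 19006 regions). With the replicate block, 4238 and 4316 regions separated and limma called 3 for E14.5 and 0 for E16. With crossed numbers in the replicate block, an alternative chosen after seeing the data, 4694 and 5013 separated and limma again called 3 and 0. With 1 replicate left out, where the lone sample is assumed to vary like the other stage, limma called 0 to 18 for E14.5 and 0 to 22 for E16. The number of samples (2 per stage), the lack of read counts in the files and the short list of E14.5 replicate 2 limit these results.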
